A study of Mus musculus with 32 samples.

Results

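The genes described here are 10 markers of macrophages, followed in mouse gastrocnemius (GAS) muscle after the sciatic nerve was cut. Adgre1, Csf1r and Cd68 mark macrophages at large, Cd163, Mrc1 and Lyve1 mark resident-type macrophages, Itgam and Lyz2 are typical of infiltrating monocytes and their progeny, and Trem2 and Gpnmb mark a lipid-handling phagocyte state. They were chosen by symbol for their known expression in macrophages. All 10 were found among the 33397 genes of the expression table, and all 10 passed the filter on low values. The table holds FPKM, the fragments of a gene scaled to transcript length and library size, for 32 samples of C57BL/6 GAS muscle. There were 4 samples of 0 d and 4 of each later time, namely 1, 3, 5, 7, 14, 21 and 28 d. The labels list sciatic nerve transection for every sample, the 0 d samples included, whereas the study's methods compare denervated mice with sham mice that had the same operation without transection. The 0 d group is called 0 d here, and all comparisons with the starting level rest on its 4 samples. In the expression table its columns carry the letter C and no day, and they were taken to be the 0 d samples. The study's methods name male C57BL/6J mice, and no transgene or deletion is named for these samples. The study describes its samples as biologically independent, and the labels do not tie them to mice, so p-values measure the spread between these samples.

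Skeletal muscle holds macrophages between its fibres and along its vessels, many of them long-lived cells that display the scavenger receptor CD163, the mannose receptor CD206 (encoded by Mrc1) and the hyaluronan receptor LYVE1. After damage, monocytes enter from the blood, carry the integrin subunit CD11b (Itgam) and large amounts of lysozyme (Lyz2), and turn into macrophages that clear debris and later aid repair. In muscle that has lost its nerve, the fibres stay in place while the distal nerve branches inside the muscle degenerate, and macrophages are known to clear myelin there.

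The resident-type genes lie at chr6:124304656-124330527 (Cd163, plus strand), chr2:14229392-14332057 (Mrc1, plus) and chr7:110850607-110863239 (Lyve1, minus) of GRCm38. Itgam spans chr7:128062640-128118491 (plus) and Lyz2 chr10:117277331-117282321 (minus). The general markers lie at chr17:57358691-57483527 (Adgre1, plus), chr18:61100598-61132149 (Csf1r, plus) and chr11:69664213-69666153 (Cd68, minus). Trem2 lies at chr17:48346401-48354147 (plus) and Gpnmb at chr6:49036546-49070929 (plus), and FPKM counts the exons of each gene.

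Samples held 14199902 to 17561584 fragments each, as recovered from the FPKM steps. The labels' extraction text speaks of retinas, but 6 retina genes summed to between 0.0938 and 0.524 FPKM, whereas 6 genes of skeletal muscle fibres summed to between 19669 and 36106 FPKM. One library stood apart: in 3 d replicate 1 (replicates 1 to 4 follow the table's column order) 8 of the 10 markers were at 0.144 to 0.357 times the mean of the other 3 samples of 3 d. Adgre1 was 2.18 FPKM there, below all 4 samples of 0 d, although Myog, a transcription factor induced in denervated fibres, stood at 165 FPKM against 1.61 to 2.59 FPKM at 0 d. Myog was still below the other 3 samples of 3 d (218 to 241 FPKM). So were the muscle genes Chrna1 (24.6 against 38.5 to 72.0 FPKM), Chrng (3.83 against 6.16 to 15.0 FPKM) and Myh3 (16.7 against 41.6 to 83.3 FPKM), all above their 0 d ranges. The fibroblast collagen gene Col3a1 was low there too, at 17.8 FPKM against 108 to 191 FPKM in the other 3 samples. The fold changes of the markers and the counts of the gene lists at 3 d are therefore given with and without this library. As all values come from whole muscle, more macrophages and more RNA of these genes per macrophage cannot be told apart.

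All 10 markers were higher than at 0 d at some time, and none was called lower than at 0 d at any time. A gene was called where limma on log2(FPKM + 0.1) gave a Benjamini-Hochberg adjusted p under 0.05 and a change of at least 1.5-fold. At 1 d 4 of the 10 were called higher (Mrc1, Lyve1, Itgam and Cd68), where 11.3% of the 22071 genes tested were. All 10 were called higher at 3 d, against 20.4% of genes, and all 10 at 5 d, against 25.3%. Of the 10, 9 were called higher at 7 d and 9 at 14 d, against 26.4% of genes at both times. The counts were 8 at 21 d, against 21.1%, and 8 at 28 d, against 26.7%. Lyve1 was the gene left out at 7 and 14 d, and Lyve1 and Cd163 were those left out at 21 and 28 d.

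**Figure D1:**
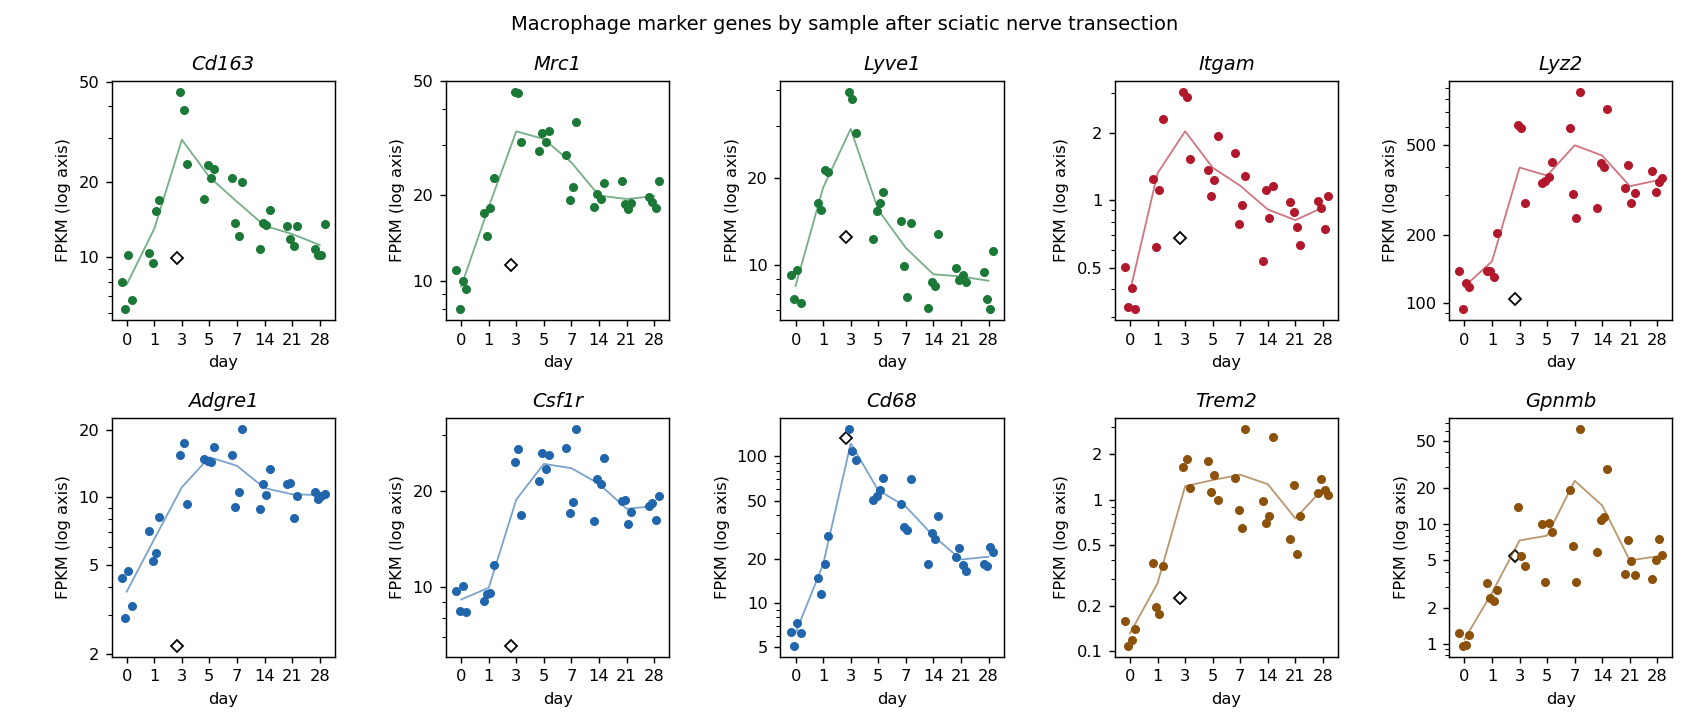
FPKM of the 10 marker genes (vertical axes, logarithmic) in each of the 32 samples, by days after denervation. Each point is 1 sample and the open diamond is 3 d replicate 1, which lies below the other 3 samples of 3 d for 8 of the 10 genes but not for Cd68 or Gpnmb.

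The median log2 fold change of the 10 markers over 0 d was 0.84 at 1 d, rose to 1.69, 1.67 and 1.59 at 3, 5 and 7 d, and then stood at 1.35, 1.22 and 1.25 at 14, 21 and 28 d. The median of all tested genes lay at 0.10, 0.16, 0.33, 0.34, 0.36, 0.27 and 0.35 at the same times, a shift shared by most genes. The mitochondrial share of the libraries was 14.5% to 18.2% at 0 d, 6.69% to 11.3% at 7 d and 9.33% to 11.7% at 28 d, and its part in the shift was not tested. Median-ratio scaling, which removes that shift, brought the markers' medians to 0.65, 1.45, 1.29, 1.22, 0.96, 0.92 and 0.90. It also lowered the share of higher calls among all calls from between 65.8% and 81.6% to between 45.1% and 51.6%. The exact permutation test of 4 against 4 samples (two-sided, 70 permutations, smallest possible p 0.0286) gave that smallest p in 58 of the 70 comparisons of a marker with 0 d. At 3 d it gave a larger p for Cd163 (0.0571), Lyz2 (0.114), Adgre1 (0.143) and Csf1r (0.143). Without 3 d replicate 1 all 10 were still called at 3 d by limma, and the log2 fold changes lay between 1.29 for Csf1r and 4.20 for Cd68. For Mrc1 the value at 3 d went from 1.61 to 2.06, for Lyve1 from 1.66 to 2.03, for Lyz2 from 1.45 to 1.99 and for Gpnmb from 2.50 to 2.58.

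**Figure D2:**
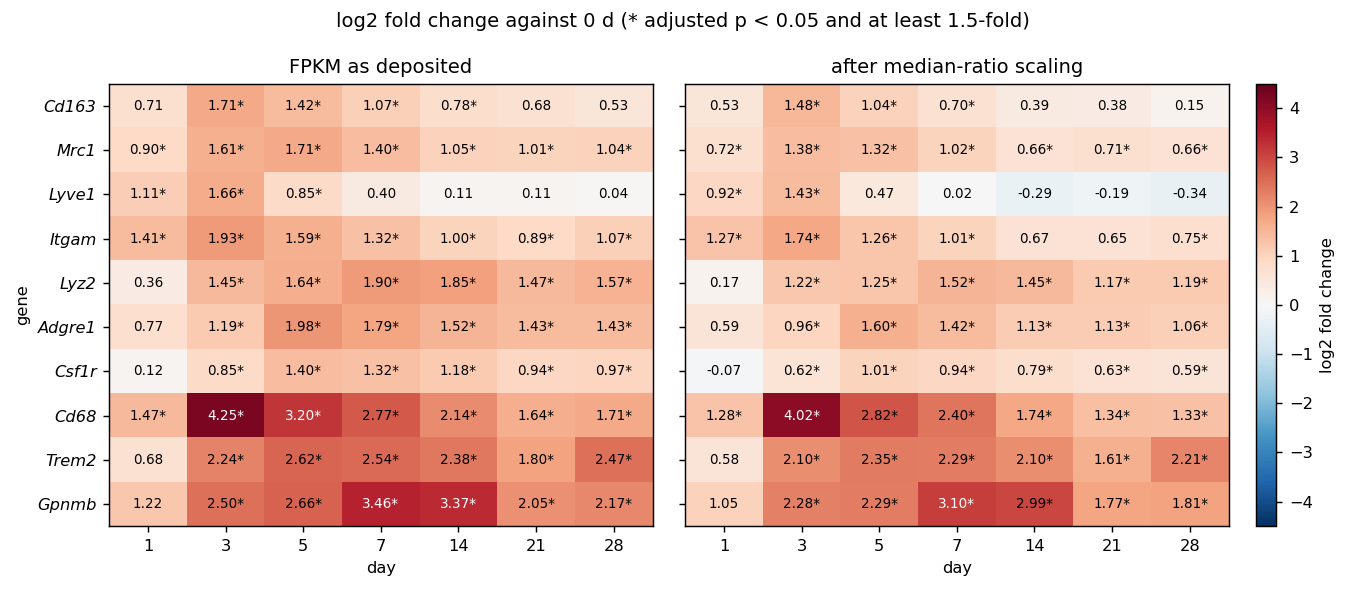
Log2 fold change of each marker gene over 0 d by day, from FPKM as deposited and after median-ratio scaling. Most values are above 0 in both, and Lyve1 returns to the 0 d level by 28 d (0.04 as deposited, -0.34 after scaling).

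Among the resident-type markers, Cd163, the scavenger receptor for haemoglobin bound to haptoglobin, stood at 7.99, 6.22, 10.2 and 6.79 FPKM in the 4 samples of 0 d. At 3 d it reached 9.91, 45.6, 38.5 and 23.7 FPKM, with replicate 1 inside the 0 d range and the others well above it. The log2 fold change at 3 d was 1.71 (SE 0.29, adjusted p = 1.34e-05, limma) with all libraries and 2.16 without replicate 1. The rise had largely gone by 28 d, when the samples held 10.8, 10.3, 10.2 and 13.6 FPKM (0.53, SE 0.29, adjusted p = 0.135, limma). At 14 d Cd163 was called at 0.78 (adjusted p = 0.0265, limma), a call lost after median-ratio scaling (0.39) and without 0 d replicate 2 (0.68) or 4 (0.73) or 14 d replicate 2 (0.77) or 4 (0.71). At 1 and 21 d it was not called (0.71 and 0.68, adjusted p = 0.0629 and 0.0589, limma), but it was at both times without 0 d replicate 3 or 3 d replicate 1 or 2, at 1 d without 1 d replicate 2, and at 21 d without 3 d replicate 3.

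Mrc1, which encodes the mannose receptor that takes up glycoproteins, was higher at every time point. It held 10.99, 7.99, 10.03 and 9.39 FPKM at 0 d and 17.3, 14.5, 18.0 and 23.0 FPKM at 1 d, with no overlap. At 5 d the 4 samples lay close together at 28.6, 32.9, 30.7 and 33.5 FPKM (log2 fold change 1.71, SE 0.26, adjusted p = 2.93e-06, limma). It remained above every 0 d sample at 28 d, at 19.8, 19.0, 18.1 and 22.5 FPKM.

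Lyve1 encodes a hyaluronan receptor of resident macrophages and of lymphatic endothelium. Its samples of 0 d held 9.25, 7.69, 9.63 and 7.42 FPKM, and at 1 d they already held 16.3, 15.5, 21.3 and 20.9 FPKM (1.11, SE 0.25, adjusted p = 0.000819, limma). The highest mean came at 3 d with 12.5, 39.4, 37.2 and 28.6 FPKM, and the groups did not overlap even with the low replicate 1. By 7 d the levels of 14.2, 9.94, 7.79 and 14.003 FPKM overlapped those of 0 d. At 28 d it held 9.47, 7.69, 7.07 and 11.2 FPKM, and the log2 fold change was 0.04 (SE 0.25, adjusted p = 0.915, limma). Its call at 5 d (0.85) was lost after median-ratio scaling (0.47), and at 14, 21 and 28 d that scaling turned its fold change below 0 with no call. Prox1 and Flt4, which lymphatic endothelium also expresses, correlated with Lyve1 over the 32 samples at Pearson r = -0.29 and 0.55, and at 0.59 and 0.53 after the mean of each time point was taken out. The 6 genes of the lymphatic list summed to 8.19 to 13.8 FPKM at 0 d and 9.72 to 20.5 FPKM at 3 d. They differed, with 3 d means of 0.99 (Mmrn1), 1.04 (Flt4) and 1.06 (Prox1) times 0 d. Those of Reln (1.85), Pdpn (1.91) and Ccl21a (2.07) were higher, and that of Lyve1 was 3.46 times 0 d. The part of lymphatic vessels in the Lyve1 level was not tested.

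The promoters of Cd163 and Mrc1 are shown because these 2 resident markers rose to similar levels at 3 d but kept different shares of the rise. The sequences are the stretch before the annotated start, 5′ to 3′ on the gene's strand, from RefSeq (GRCm38.p6), at chr6:124304401-124304650 (plus strand) for Cd163 and chr2:14229164-14229391 (plus strand) for Mrc1, and capitals mark matches to the PU.1 core GAGGAA on either strand.
Cd163: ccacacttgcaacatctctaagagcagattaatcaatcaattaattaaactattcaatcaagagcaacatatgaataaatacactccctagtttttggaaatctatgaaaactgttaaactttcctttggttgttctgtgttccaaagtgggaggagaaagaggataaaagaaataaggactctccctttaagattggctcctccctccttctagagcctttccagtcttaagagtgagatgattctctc
Mrc1: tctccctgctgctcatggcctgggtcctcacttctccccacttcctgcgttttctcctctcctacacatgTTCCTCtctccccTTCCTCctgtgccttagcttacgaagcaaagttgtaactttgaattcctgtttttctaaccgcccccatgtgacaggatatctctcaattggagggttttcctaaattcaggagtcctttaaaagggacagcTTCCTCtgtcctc
The Mrc1 stretch holds the PU.1 core 3 times and the Cd163 stretch does not hold these letters. PU.1, encoded by Spi1, is a transcription factor that macrophages need. Among 7 markers with a RefSeq promoter, 4 hold the core (Mrc1, Itgam, Cd68 and Trem2), against 23.3% of 32851 promoter stretches of 250 bases from all genes, though the stretches of Mrc1 and Lyz2 were shorter (228 and 201 bases). A match is a description of the sequence only.

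Of the infiltrating-type markers, Itgam, which encodes the integrin subunit CD11b, was sparse. It held 0.504, 0.333, 0.404 and 0.326 FPKM at 0 d, and 25 to 256 fragments per sample over the series. At 1 d it was 1.25, 0.621, 1.11 and 2.30 FPKM, above every 0 d sample (1.41, SE 0.34, adjusted p = 0.00189, limma). It peaked at 3 d with 0.676, 3.05, 2.89 and 1.52 FPKM (1.93, or 2.35 without replicate 1). Its calls at 14 d (1.00) and 21 d (0.89) were lost after median-ratio scaling (0.67 and 0.65), the former also without 14 d replicate 2 (0.90) or 4 (0.88), and the latter without any of 0 d replicates 2, 3 and 4 and 21 d replicates 1, 2 and 3 (0.81 to 0.92). With 1 instead of 0.1 added to FPKM its calls at 14, 21 and 28 d were lost (0.44, 0.38 and 0.47). The exons of Itgam share 3450 bases with those of Gm49368 on the same strand, which was listed at 0 in 26 of the 32 samples and at most at 0.0129 FPKM in the others.

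Lyz2 encodes lysozyme, an antibacterial enzyme of myeloid cells, and had the highest mean of the 10 at every time point. It held 139, 93.9, 123 and 118 FPKM at 0 d and, in contrast to Itgam, 139, 139, 130 and 205 FPKM at 1 d, where 3 of the 4 samples lay inside the 0 d range (0.36, SE 0.39, adjusted p = 0.562, limma). At 3 d it held 104, 617, 596 and 277 FPKM, and at 7 d it reached its highest mean with 597, 303, 238 and 862 FPKM. All 4 samples of 7 d exceeded every 0 d sample (1.90, SE 0.39, adjusted p = 0.000173, limma), though they differed from each other by over 3-fold. The level at 28 d was steadier, at 386, 311, 343 and 359 FPKM, and kept 60.5% of the rise. Lyz1, its close paralogue, held 4.75 to 22.9 FPKM, and fragments that the counting split between the pair cannot be traced.

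Adgre1, the gene of the surface receptor F4/80, and Csf1r, the receptor for the macrophage growth factors CSF1 and IL-34, both reached their highest mean at 5 d. Adgre1 held 4.35, 2.90, 4.67 and 3.29 FPKM at 0 d and 14.8, 14.6, 14.3 and 16.7 FPKM at 5 d (1.98, SE 0.36, adjusted p = 4.29e-05, limma). Csf1r held 9.72, 8.40, 10.1 and 8.36 FPKM at 0 d and 21.5, 26.3, 23.4 and 26.0 FPKM at 5 d (1.40, SE 0.26, adjusted p = 4.56e-05, limma). Neither was called at 1 d (Adgre1 0.77, adjusted p = 0.121, limma, and called without 3 d replicate 1), when Csf1r held 9.03, 9.50, 9.60 and 11.7 FPKM, mostly inside the 0 d range. At 3 d the calls of both rested on a spread from 2.18 to 17.4 FPKM for Adgre1 and from 6.55 to 27.1 FPKM for Csf1r. Their exact permutation p at 3 d was 0.143 (n = 4 against 4). The log2 fold change at 3 d was 1.19 for Adgre1, and 1.84 without replicate 1. For Csf1r it was 0.85, and 1.29 without that library. Without 3 d replicate 3 the 3 d calls of both were lost (0.86 and 0.61), and without 3 d replicate 2 that of Adgre1 was lost (0.92). Both were also lost when only the 8 samples of 0 and 3 d were fitted (adjusted p = 0.115 and 0.101, limma). At 28 d Adgre1 held 9.87 to 10.6 FPKM and Csf1r 16.2 to 19.3 FPKM. The exons of Csf1r overlap those of Hmgxb3 on the opposite strand by 873 bases, and Hmgxb3 stayed between 1.48 and 3.04 FPKM.

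Cd68, a glycoprotein of late endosomes and lysosomes, had the largest fold change of the 10 at 3 d. It held 6.40, 5.12, 7.30 and 6.31 FPKM at 0 d and 14.8, 11.6, 18.5 and 28.7 FPKM at 1 d. At 3 d it held 133, 155, 109 and 94.1 FPKM (4.25, SE 0.24, adjusted p = 1.41e-14, limma), with a mean 19.5 times that of 0 d. The library low in 8 of the markers, 3 d replicate 1, had the second highest Cd68 level of the 32 samples. At 5 d the samples held 50.4, 53.8, 59.3 and 71.7 FPKM, all below those of 3 d, and at 28 d they held 18.6, 18.0, 24.1 and 22.3 FPKM, all above 0 d (1.71, SE 0.24, adjusted p = 1.11e-06, limma). Cd68 thus kept 12.4% of its rise, while Adgre1 kept 56.9% and Csf1r 57.9%.

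**Figure D3:**
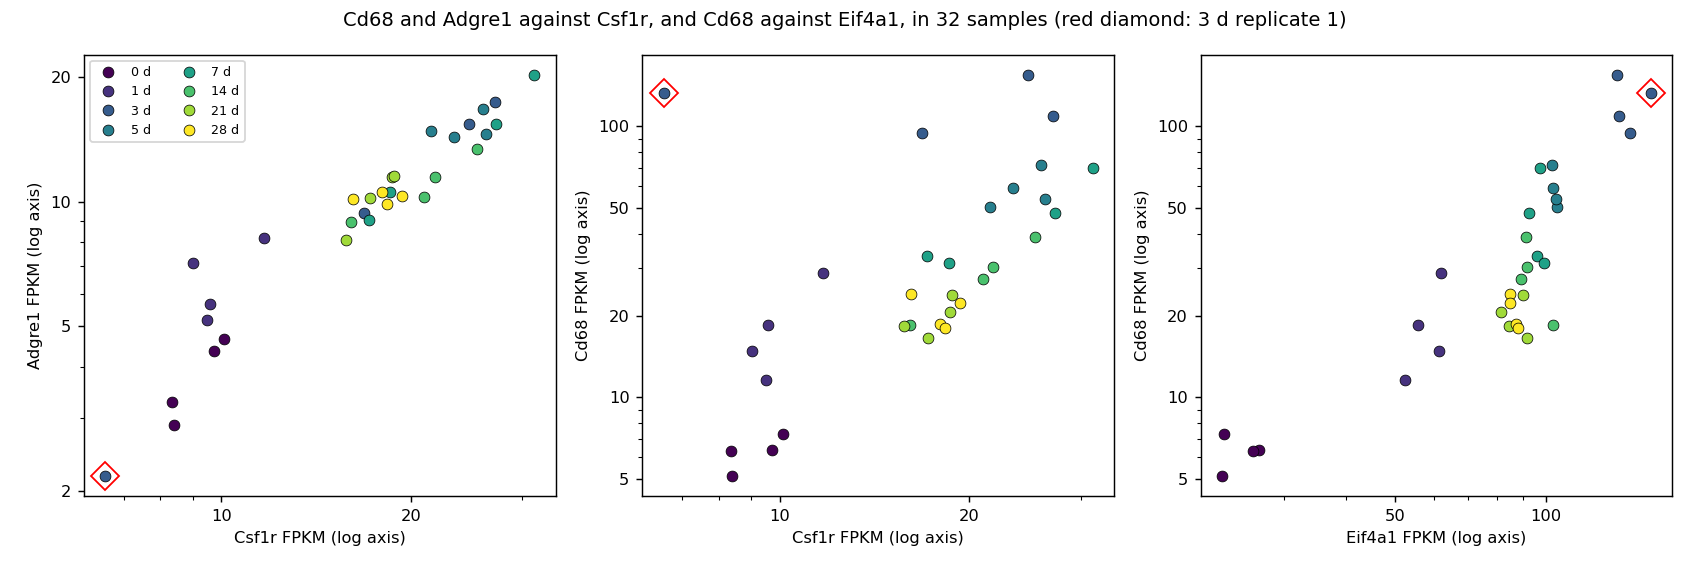
Adgre1 against Csf1r, Cd68 against Csf1r and Cd68 against Eif4a1 in FPKM in the 32 samples (logarithmic axes, colour by day, red diamond 3 d replicate 1). In that sample Cd68 is 133 FPKM while Csf1r is 6.55 FPKM, below the 0 d range of 8.36 to 10.1 FPKM.

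Within each sample the ratio of Cd68 to Csf1r was 0.609 to 0.756 at 0 d, 20.3 in 3 d replicate 1 and 4.02 to 6.26 in the other 3 samples of 3 d, and 0.985 to 1.49 at 28 d. Over the 32 samples Cd68 correlated with Adgre1 at Pearson r = 0.57, and at 0.87 without 3 d replicate 1, where all samples share the time course. The genes most like Cd68 were Rassf4 (r = 0.959), Cd63, a tetraspanin of late endosomes (0.958), and Eif6, a factor of ribosome assembly (0.951). In 3 d replicate 1 Rassf4 was 7.98 FPKM against 6.57 to 7.70 FPKM in its companions, and Eif6 53.5 FPKM against 48.7 to 52.7 FPKM, while Cd63 was lower, at 92.3 FPKM against 114 to 118 FPKM. Eif4a1, a translation initiation helicase that lies on the same strand 782 bases from Cd68, rose from a mean of 24.6 FPKM at 0 d to 147 FPKM at 3 d, with 162 FPKM in replicate 1. It was looked at after the values of Cd68 were seen. Its correlation with Cd68 was 0.87 over the samples and -0.01 after the mean of each time point was taken out, and the part of fragments running on from Eif4a1 in the Cd68 level was not tested.

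The promoter of Cd68, the marker with the largest change at 3 d, lies at chr11:69666171-69666420 on the minus strand (RefSeq, GRCm38.p6), and capitals mark matches to the PU.1 core GAGGAA, the AP-1 site TGANTCA and the C/EBP site TTGCNNAA, each searched on both strands.
Cd68: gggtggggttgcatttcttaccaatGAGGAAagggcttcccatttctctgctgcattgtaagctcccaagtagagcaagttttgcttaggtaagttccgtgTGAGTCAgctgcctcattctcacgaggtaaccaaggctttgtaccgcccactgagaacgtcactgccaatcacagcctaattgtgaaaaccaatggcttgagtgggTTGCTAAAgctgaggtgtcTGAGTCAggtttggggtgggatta
The AP-1 letters occur at positions -149 and -24 before the start, the C/EBP letters at -43 and the PU.1 core at -225. AP-1 letters stand in 6.75% and C/EBP letters in 9.56% of the 32851 promoter stretches of 250 bases, and in 2 and 1 of the 7 marker promoters. The E-box CACGTG was in none of the 7, against 6.02% of promoters.

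Trem2, a lipid receptor that signals through the adaptor Tyrobp, had the lowest mean of the 10 at 0, 1, 3, 5 and 21 d, lay above Itgam at 7, 14 and 28 d, and kept the largest share of its rise. It held 0.157, 0.108, 0.119 and 0.140 FPKM at 0 d and 1.80, 1.13, 1.46 and 0.994 FPKM at 5 d, with no overlap (2.62, SE 0.45, adjusted p = 1.64e-05, limma). At 7 d it was 1.40, 0.856, 0.650 and 2.94 FPKM and at 28 d 1.11, 1.37, 1.16 and 1.07 FPKM, which kept 78.7% of the rise from 0 d to the highest mean at 7 d. That the mean was highest at 7 d, and above that of Itgam then, rested on replicate 4. These levels rest on 8 to 226 fragments per sample. At 3 d the samples held 0.224, 1.63, 1.86 and 1.19 FPKM, all above 0 d, with a log2 fold change of 2.24 and of 2.83 without replicate 1.

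Gpnmb, a transmembrane glycoprotein of phagocytes and of some other cells, reached its highest mean at 7 d. It held 1.24, 0.957, 0.965 and 1.18 FPKM at 0 d and 3.21, 2.39, 2.26 and 2.80 FPKM at 1 d, above every 0 d sample although not called (1.22, SE 0.57, adjusted p = 0.114, limma). It was called at 1 d without 7 d replicate 4, and when only the 8 samples of 0 and 1 d were fitted. At 3 d it held 5.44, 13.9, 5.36 and 4.49 FPKM, with replicate 1 inside the range of the others. At 7 d it held 19.4, 6.59, 3.28 and 63.1 FPKM, so that 1 sample carried most of the mean of 21.3 times the 0 d level (3.46, SE 0.57, adjusted p = 9.46e-06, limma). At 28 d it was 3.46, 5.01, 7.57 and 5.52 FPKM, still above every 0 d sample (2.17, SE 0.57, adjusted p = 0.00227, limma).

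Over the 32 samples the genes most like Gpnmb were Col28a1, a collagen of peripheral nerve (r = 0.895), Atp6v0d2, a proton pump subunit of macrophages and osteoclasts (0.881), and Apod, a lipid carrier of injured nerve (0.879). After removal of each time point's mean the correlation was 0.83 with Apod, 0.65 with the Schwann cell factor Sox10 and, among the macrophage markers, 0.43 with Csf1r, 0.66 with Lyz2 and 0.71 with Cd68. Trem2 gave 0.77 with Csf1r and 0.51 with Apod. With Col28a1 the values lay closer together, at 0.75 for Gpnmb, 0.69 for Trem2 and 0.66 for Csf1r. All these values include 3 d replicate 1, where Csf1r was low and Gpnmb was not. Without that library the r of Gpnmb over the samples, time course included, went from 0.75 to 0.83 with Csf1r. With Adgre1 it went from 0.72 to 0.82 and with Lyz2 from 0.85 to 0.90, while that of Trem2 with Csf1r went from 0.90 to 0.91. In 7 d replicate 4, where Gpnmb was highest, Apod was 551 FPKM against 129 to 406 FPKM in the other 3 samples. The macrophage markers Lyz2 (862 FPKM), Csf1r (31.4 FPKM), Adgre1 (20.2 FPKM) and Trem2 (2.94 FPKM) also had their highest value of the 32 samples in that library. The correlations within time points were computed after the values of Gpnmb were seen, they are descriptions over 32 samples that share a time course, and the part of nerve tissue or of macrophages in the Gpnmb level was not tested.

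**Figure D4:**
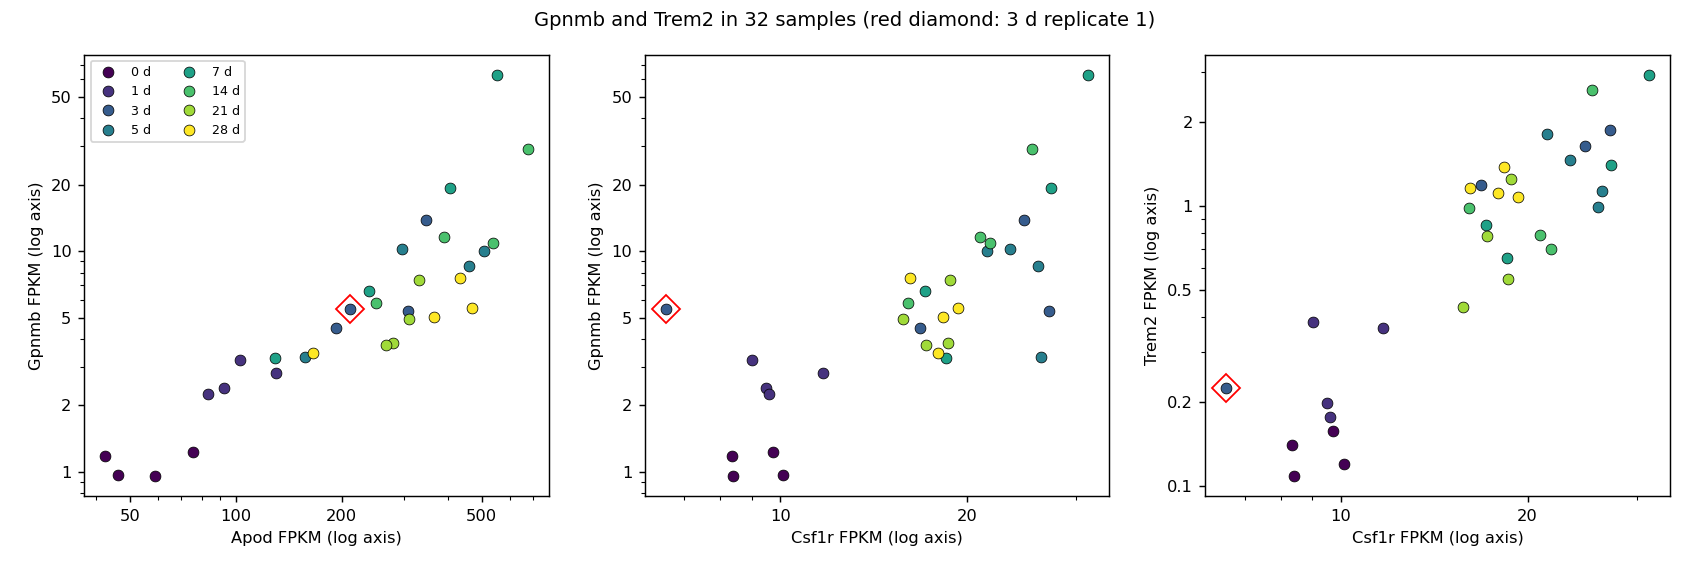
Gpnmb against Apod, Gpnmb against Csf1r and Trem2 against Csf1r in FPKM in the 32 samples (logarithmic axes, colour by day, red diamond 3 d replicate 1). Pearson r over the samples is 0.88 for Gpnmb with Apod, 0.75 for Gpnmb with Csf1r and 0.90 for Trem2 with Csf1r.

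By mean FPKM over the 32 samples, pooled over time points, the order was Lyz2 (333), Cd68 (40.1), Mrc1 (22.2), Csf1r (17.8), Cd163 (15.6), Lyve1 (13.8), Adgre1 (10.2), Gpnmb (8.35), Itgam (1.12) and Trem2 (0.955). At 0 d the ranges of Mrc1, Csf1r, Lyve1 and Cd163 overlapped one another. Cd68 overlapped only Cd163 among them. Lyz2 lay above all others, and Adgre1, Gpnmb, Itgam and Trem2 followed below without overlap. The order moved with time. By its mean Cd68 lay below Lyz2, Mrc1, Csf1r, Lyve1 and Cd163 at 0 d and below Lyz2 alone from 3 d on, with means of 123 FPKM at 3 d and 20.8 FPKM at 28 d. At 28 d Cd68 overlapped Mrc1 and Csf1r. Adgre1 (10.2 FPKM) then stood above Lyve1 (8.85 FPKM), with overlap, and Trem2 (1.18 FPKM) above Itgam (0.928 FPKM), without overlap.

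Between neighbouring time points after 1 d, calls of markers were made at the same steps as most calls among all genes, of which 18.2% (4025 of 22071) were called from 1 to 3 d and 2646 from 3 to 5 d in either direction. From 1 to 3 d 6 were called higher (Cd163, Mrc1, Lyz2, Csf1r, Cd68 and Trem2), against 10.4% of genes, and 9 were without 3 d replicate 1. That count fell to 2 without 3 d replicate 2, to 3 without 3 d replicate 3 or any of 1 d replicates 1, 2 and 3, and to 4 without 3 d replicate 4. It was also 2 when only the 8 samples of 1 and 3 d were fitted, where of the 6 named only Cd68 stayed called. With no filter on low values the calls of Mrc1 and Lyz2 were lost. From 3 to 5 d Lyve1 and Cd68 were called lower, against 3.0% of genes, and no marker was called higher with all libraries, against 8.98%. Without 3 d replicate 2 or 3, Adgre1 and Csf1r were called higher, and without 3 d replicate 1 Cd163 was called lower as well. Cd68 fell by 1.05 and Lyve1 by 0.81 on the log2 scale, and the call of Lyve1 was lost without 3 d replicate 2 (-0.62) or 3 (-0.65) or 5 d replicate 1 (-0.70). The call of Lyve1 was also lost when only the 8 samples of 3 and 5 d were fitted. From 5 to 7, 7 to 14, 14 to 21 and 21 to 28 d limma called none, where 0.834%, 1.0%, 0.612% and 0.213% of all genes were called in either direction, so that a count of 0 of 10 is near the share among all genes. At these steps 0, 1 (Cd68), 1 (Gpnmb) and 0 markers had an unadjusted p under 0.05. From 7 to 28 d Cd68 was called lower, against 2.32% of genes, and Gpnmb was called lower as well without 7 d replicate 3.

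The resident-type markers changed relative to each other and to the general markers, here given as ratios within each sample, with no test. Lyve1 to Mrc1 lay between 0.790 and 1.18 in all 12 samples up to 3 d and between 0.365 and 0.584 in all 20 samples from 5 d on, with no overlap. Lyve1 to Csf1r went from a median of 0.933 at 0 d to 1.80 at 1 d and 1.65 at 3 d, then down to 0.635 at 5 d and 0.482 at 28 d. Mrc1 to Csf1r went from a median of 1.06 to 1.90 at 1 d and 1.79 at 3 d, and was 1.11 at 28 d. Cd163 to Adgre1 had a median of 2.11 at 0 d and 2.74 at 3 d, when all 4 samples (2.21 to 4.55) lay above those of 0 d (1.84 to 2.19), and then of 1.40 at 5 d and 1.03 at 28 d, below every 0 d sample from 5 d on. Adgre1 to Csf1r was 0.345 to 0.462 at 0 d, 0.545 to 0.786 at 1 d and 0.535 to 0.628 at 28 d, with no overlap with 0 d at any later time but 3 d, where replicate 1 was 0.333. The library 3 d replicate 1 had Mrc1 to Csf1r at 1.75, inside the range of its companions (1.68 to 1.86), whereas Lyve1 to Mrc1 was 1.09 against 0.815 to 0.931 and Cd163 to Adgre1 4.55 against 2.21 to 2.96.

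Of the ratios that involve the infiltrating-type markers, those of Itgam to Csf1r and Cd163 to Itgam did not overlap between 0 and 1 d, while those of Mrc1 to Itgam and Lyz2 to Csf1r did. Itgam to Csf1r went from a median of 0.0398 at 0 d to 0.127 at 1 d and 0.105 at 3 d, and all 8 samples of 1 and 3 d lay above those of 0 d. From 7 d on it was between 0.0331 and 0.0596, overlapping 0 d. Mrc1 to Itgam had a median of 24.4 at 0 d, 15.0 at 1 d and 21.04 at 28 d, and the samples of 1 d reached up to 23.3, within the 0 d range of 21.8 to 28.8, while those of 3 d (15.1 to 20.2) lay below it. Cd163 to Itgam was 15.9 to 25.3 at 0 d, and all samples lay below that range at 1 d (7.33 to 15.3), 3 d (13.4 to 15.5) and 28 d (10.8 to 13.7), with overlap at the times between. Lyz2 to Csf1r went from a median of 13.1 at 0 d to 15.0 at 1 d and 19.9 at 28 d. All 4 samples of 28 d (17.0 to 21.5) lay above those of 0 d (11.2 to 14.3), as did all samples of 3, 14 and 21 d.

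**Figure D5:**
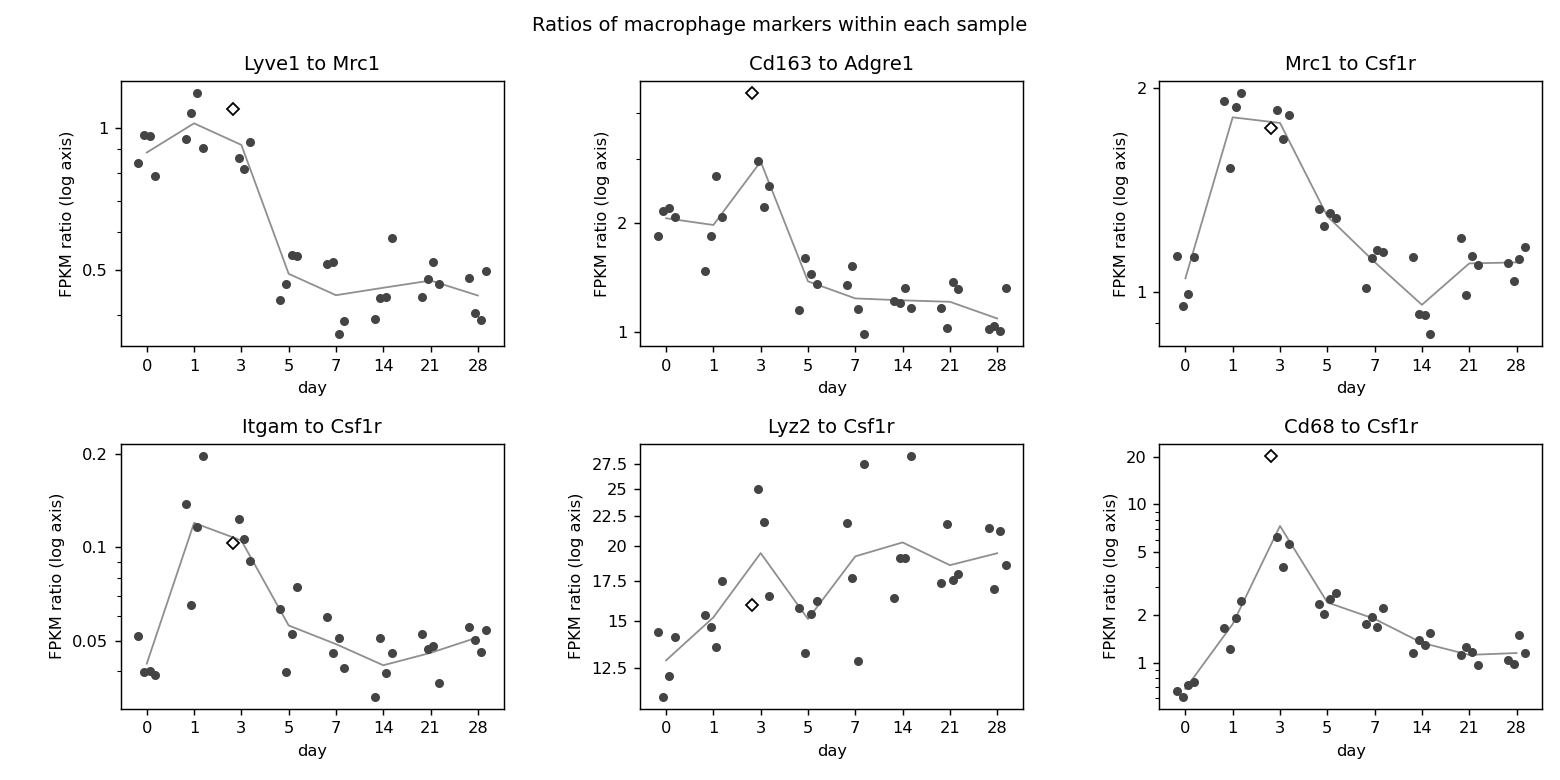
Ratios of FPKM between macrophage markers within each of the 32 samples, by day (logarithmic axes; lines join geometric means; open diamond, 3 d replicate 1). Lyve1 to Mrc1 steps down between 3 and 5 d, Itgam to Csf1r is highest at 1 and 3 d, and Cd68 to Csf1r peaks at 3 d.

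Further genes of each kind were taken from lists. Of 12 further resident-type genes, 2 were called higher at 1 d, 6 at 3 d (7 without 3 d replicate 1) and 8 at both 5 and 7 d (5 at 7 d without 7 d replicate 4), beside 11.3%, 20.4%, 25.3% and 26.4% of all genes at these times. The later counts were 4, 2 and 3 at 14, 21 and 28 d, out of 12, beside 26.4%, 21.1% and 26.7% of all genes called higher then, so the last 2 counts were no larger a share than among all genes. The 2 of 1 d, F13a1 and Vsig4, were not called without 1 d replicate 4. F13a1, a transglutaminase, held 8.63 to 11.9 FPKM at 0 d and 27.5 to 35.7 FPKM at 5 d (1.63, SE 0.29, adjusted p = 2.87e-05, limma), and was the gene most like both Cd163 (r = 0.971) and Mrc1 (0.962). Cbr2, a carbonyl reductase, rose later, to 58.6 to 69.97 FPKM at 5 d from 31.4 to 38.9 FPKM at 0 d (0.88, adjusted p = 0.00184, limma), and held 28.6 to 43.5 FPKM at 28 d. Pf4, a chemokine of platelets and macrophages, was called at 3 and 5 d alone. Maf, a transcription factor of resident macrophages that other muscle cells also express, was called lower from 3 d on (5.59 to 11.7 FPKM, against 20.0 to 22.2 FPKM at 0 d), and Timd4 at 3 d. The 3 d calls of Pf4, Maf and Timd4 were also made without 3 d replicate 1 (1.40, -1.01 and -0.63). Among all genes, lower calls made up 5.11% at 1 d and 10.6% at 3 d, then 6.12%, 6.52%, 5.94%, 6.37% and 6.32% at 5, 7, 14, 21 and 28 d.

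Of 10 further monocyte-type genes 8 were called higher at 1 d (6 without 1 d replicate 4), beside 11.3% of all genes. The counts were then 4 (5 without 3 d replicate 1), 5, 6, 4, 5 and 6 of 10 at 3, 5, 7, 14, 21 and 28 d, beside 20.4%, 25.3%, 26.4%, 26.4%, 21.1% and 26.7% of all genes. Ccr2, the chemokine receptor that brings monocytes out of the marrow, held 1.75 to 2.54 FPKM at 0 d, 2.80 to 8.46 FPKM at 1 d and 8.23 to 10.02 FPKM at 28 d (1.97, SE 0.31, adjusted p = 5.9e-06, limma). Cd14, a co-receptor for lipopolysaccharide, was called from 3 d on and held 6.57 to 8.53 FPKM at 28 d against 2.55 to 4.01 FPKM at 0 d. Nr4a1, a nuclear receptor of patrolling monocytes that muscle fibres also express, was called lower from 3 d on, at 4.58 to 12.1 FPKM against 31.1 to 48.7 FPKM.

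Of 10 further general macrophage genes 5 were called higher at 1 d (2 without 1 d replicate 4), 8 at 3 d (9 without 3 d replicate 1), 9 at both 5 and 7 d and 8 at each later time, where 11.3% of all genes were at 1 d and 20.4% to 26.7% later. Mpeg1, a pore-forming protein of macrophages, held 2.03 to 2.99 FPKM at 0 d and 15.7 to 44.5 FPKM at 14 d (3.31, SE 0.50, adjusted p = 2.52e-06, limma). Fcer1g, the signalling chain of Fc receptors, held 5.37 to 9.21 FPKM at 0 d and 17.9 to 22.2 FPKM at 28 d.

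Of 10 further phagocyte-state genes 2 were called higher at 1 d, beside 11.3% of all genes, and 4 at 3 d (6 without 3 d replicate 1), beside 20.4%. The counts were 8, 9, 9, 8 and 9 of 10 at 5, 7, 14, 21 and 28 d, beside 25.3%, 26.4%, 26.4%, 21.1% and 26.7%. The count at 7 d was 6 without 7 d replicate 4, and that at 1 d was 1 without 1 d replicate 4. Lgals3, which encodes the lectin galectin-3, held 3.80 to 5.10 FPKM at 0 d, 43.2 to 107 FPKM at 3 d and 40.6 to 55.8 FPKM at 28 d (3.39, SE 0.33, adjusted p = 1.27e-09, limma). Spp1, the secreted protein osteopontin, peaked at 3 d with 19.1 to 134 FPKM against 4.41 to 7.36 FPKM at 0 d. Tyrobp, the partner of Trem2, held 6.23 to 9.54 FPKM at 0 d and 23.9 to 28.3 FPKM at 28 d.

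Markers of other cells that share genes with macrophages moved as well. The 9 neutrophil genes, of which 6 were tested, summed to 1.33 to 2.33 FPKM at 0 d, 9.09 to 98.3 FPKM at 1 d and 21.7 to 42.0 FPKM at 28 d, and all 6 tested were called higher at 1 d, 5 at 7 d and 4 at each other time (5 at 3 d without 3 d replicate 1), beside 11.3% of all genes at 1 d and 20.4% to 26.7% later. S100a8 made up much of that sum, with 15.4 to 35.0 FPKM at 28 d, while Ly6g, which defines neutrophils, was at 0 in all samples of 0, 3, 14 and 21 d and reached 0.514 FPKM in a sample of 1 d. Neutrophils also carry Itgam and Lyz2, and their part in these levels was not tested. Of the 5 dendritic cell genes none was called higher at 1 d or 3 d by limma (0 and 2 had an unadjusted p under 0.05 in either direction) and 4 were at 28 d (Xcr1, Clec9a, Flt3 and Cd209a), beside 26.7% of all genes. No mast cell gene was called higher by limma at any time against 0 d, and Mcpt4 and Kit were called lower at 3 d, with or without 3 d replicate 1, beside 10.6% of all genes. The unadjusted p was under 0.05 for 2 of the 5 mast cell genes at 3 d and 1 at 5 d, and for none at the other times.

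Several markers shared their most similar genes. Likeness was Pearson r over the 32 samples among 13878 genes with a mean of at least 0.5 FPKM, described without a test, since all samples share the time course. Unc93b1, which carries nucleic acid receptors to endosomes, was among the 3 genes most like Lyz2 (r = 0.970), Adgre1 (0.966) and Csf1r (0.975). Complement C1q genes were among those most like 3 markers, C1qa to Adgre1 (0.965), C1qc to Csf1r (0.974) and C1qb to Trem2 (0.928). Prcp, a lysosomal peptidase, was most like Adgre1 (0.972) and Ctss, the protease cathepsin S, most like Lyz2 (0.971). Itgam was followed by Ms4a6d (0.946), and Trem2 by Ly9 (0.935). Among the markers themselves the infiltrating-type pair was not most alike, with r = 0.63 between Lyz2 and Itgam. Lyz2 had 0.95 with Csf1r, 0.93 with Trem2 and 0.92 with Adgre1, while Itgam had 0.89 with Mrc1 and 0.88 with Cd163. Lyve1 was set apart, with Rab1a (0.925), Prg4 (0.898) and Ednrb (0.898) most like it, and its r with Csf1r was 0.22 over the samples but 0.90 after removal of each time point's mean. The latter value includes 3 d replicate 1, where Lyve1 and Csf1r were both below the other samples of 3 d.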

How the data were processed

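Total RNA of mouse GAS muscle was sequenced as paired ends, per the study's methods. The submitters' processing notes name CASAVA, HISAT2 2.1.0, DESeq2 and the build GRCm38, and the counter, annotation and strand setting are not given in the sources used here. The authors deposited FPKM per gene. Columns of the later groups carry the day, while those of the control carry the letter C and were taken as the 0 d samples. None names an individual sample, so replicates were numbered in column order. Symbols came from GENCODE M21 (33356 of 33397 genes matched). Fragments were recovered from FPKM steps, of which 99.3% to 99.4% were whole within 0.02 among values under 200 fragments, and they served for depth and one alternative fit.

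Tests used limma 3.58.1 on log2(FPKM + 0.1) with a variance trend over all 32 samples, for genes at 0.1 FPKM or more in at least 4 samples, and exact permutation tests for single markers. Fold changes are on that log2 scale and understate those of low genes. The code was tested on simulated data. The markers, lists and tests were chosen with earlier results of these data known. Beside the 10 markers, the text names the 3 genes of highest mean FPKM of each list, called genes where 5 or fewer were called, and the 3 genes most like each marker, except a few genes that are not reported here. Alternatives were other pseudocounts, filters, scalings, sample sets and models, and the omission of each library.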

Additional observations from a re-analysis of the deposited data

Results flagged for a closer look

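In 3 of 80 groups of 4 samples (10 markers at 8 time points) the highest sample lay so far from the others that its gap, as a share of the group's range, exceeded Dixon's critical value, which chance gives in about 5% of groups. Lyz2 at 1 d was 204.6 FPKM in replicate 4 against 130.15 to 139.12 FPKM in the other samples. Trem2 at 14 d was 2.5919 FPKM in replicate 4 against 0.69854 to 0.97859 FPKM. Gpnmb at 3 d was 13.884 FPKM in replicate 2 against 4.4939 to 5.4419 FPKM.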

How the results depend on the processing

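No paired analysis was possible because the numbers and letters of the columns are tied to no individual samples, and nothing says that they pair samples across time points. The number of markers called stayed within 1.5 times under other pseudocounts, filters, scalings and models in all 14 comparisons, and changed with the samples used. Single calls were lost for Itgam at 14, 21 and 28 d with a pseudocount of 1, for Itgam at 21 d and Mrc1 and Lyz2 from 1 to 3 d with no filter, for Itgam at 14 and 21 d and Gpnmb at 21 d with voom on recovered fragments, and for Adgre1 and Csf1r at 3 d, Cd163, Mrc1, Lyz2, Csf1r and Trem2 from 1 to 3 d and Lyve1 from 3 to 5 d with 8 samples. Cd163 at 1 and 21 d was called after TPM rescaling, with a filter of 1 FPKM and with 8 samples, and Adgre1 and Gpnmb at 1 d with 8 samples. With only the 8 samples of the groups compared the number of markers called was 7 at 1 d against 0 d, 2 at 3 d against 1 d and 1 at 5 d against 3 d. The 2 at 3 d against 1 d were Cd68 and a marker that the fit of all samples did not call at that step. Leaving out 1 library gave 2 to 9 markers at 3 d against 1 d, 1 to 3 at 5 d against 3 d and 1 to 2 at 28 d against 7 d. Leaving out 1 library gave 82 to 167 genes of all tested at 21 d against 14 d and 11 to 55 at 28 d against 21 d. With a pseudocount of 1 the genes called against 0 d were 1950, 4254, 4148, 4308, 4075, 3466 and 4049 at 1, 3, 5, 7, 14, 21 and 28 d (3621, 6847, 6934, 7267, 7138, 6057 and 7277 with 0.1), 2331 at 3 d against 1 d, 1272 at 5 d against 3 d, 140 at 14 d against 7 d and 654 at 28 d against 7 d. With no fold threshold they were 6679 at 1 d and 9454 at 21 d against 0 d, 6984 at 3 d against 1 d, 5336 at 5 d against 3 d, 349 at 7 d against 5 d, 491 at 14 d against 7 d, 277 at 21 d against 14 d and 2637 at 28 d against 7 d, as that setting calls smaller changes. A filter of 1 FPKM gave 30 genes at 28 d against 21 d, and the 8-sample fit gave 115 at 14 d against 7 d and 30 at 28 d against 21 d. The causes of these changes were not tested. Median-ratio scaling reversed Csf1r at 1 d (-0.0661) and Lyve1 at 14, 21 and 28 d (-0.2892, -0.1887 and -0.3353). Leaving out 1 library moved Lyve1 between -0.0749 and 0.1432 at 28 d, below 0 without 0 d replicate 2 or 4 or 28 d replicate 4, and between -0.0589 and 0.2219 at 14 d, below 0 without 14 d replicate 4, all with no call. Few fragments limit Trem2 and Itgam.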

Other observations

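Genes of macrophage activation and growth took different courses. Retnla, a secreted protein of alternatively activated macrophages and of other stromal cells, fell from 58.3 to 122 FPKM at 0 d to 20.4 to 31.8 FPKM at 3 d (-1.69, SE 0.23, adjusted p = 4.84e-07, limma, and -1.57 without 3 d replicate 1) and held 146 to 199 FPKM at 28 d (1.01, SE 0.23, adjusted p = 0.000553, limma). Hmox1, the enzyme that breaks down haem, rose to 48.6 to 63.0 FPKM at 1 d from 6.05 to 9.20 FPKM (2.87, SE 0.23, adjusted p = 1.05e-10, limma) and was called at every time point. Of the 8 genes of this list, 2 were called higher at 1, 3 and 21 d (3 at 3 d without 3 d replicate 1) and 3 at the other times, where 11.3% of all genes were at 1 d and 20.4% to 26.7% later, and Nos2, the inducible nitric oxide synthase, was called lower from 3 to 14 d.

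Of the ligands of the CSF1 receptor, Csf1 was called at 1 d, and at 3 d without 3 d replicate 1, but at no other time. It stood at 6.60 to 10.7 FPKM at 1 d against 4.78 to 5.92 FPKM at 0 d (0.69, SE 0.14, adjusted p = 0.000368, limma), a call lost without 1 d replicate 4 (0.58). Il34 was called at 5 d alone, at 2.96 to 3.98 FPKM against 1.68 to 2.44 FPKM (0.68, SE 0.24, adjusted p = 0.0197, limma). Csf2ra, a receptor chain for GM-CSF, was called at every time point with all libraries and held 3.64 to 4.56 FPKM at 28 d against 1.47 to 2.04 FPKM at 0 d. At 1 d it held 2.36 to 4.68 FPKM, with the highest value in replicate 4. Of the 4 genes of this list that were tested, 3 were called higher at 1 d (Csf1, Csf2ra and Csf2rb), beside 11.3% of all genes, and 2 or 3 at each later time, beside 20.4% to 26.7%. Without 1 d replicate 4 the count at 1 d was 1, so that Csf2ra or Csf2rb lost its call beside Csf1.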
